A study of Mus musculus with 12 samples.

Results

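The MHC class II pathway was followed through 8 genes picked by symbol among the 23997 genes of each library, namely the class II chains H2-Aa, H2-Ab1 and H2-Eb1, the invariant chain Cd74, the transactivator Ciita, and the H2-DM genes H2-DMa, H2-DMb1 and H2-DMb2. RNA-seq compared bone marrow-derived macrophages (BMDMs) of WT and Pim1-/- mice, to learn what the Pim1 kinase does in macrophages that meet LPS, the bacterial ligand of TLR4. All mice were C57BL/6 males aged 8 to 10 weeks, and the Pim1-/- mice carried a CRISPR/Cas9 deletion of exons I to V of Pim1. Marrow cells of both genotypes grew in medium with 20% serum and were then given 10 ng/ml recombinant human M-CSF for 7 d. The 4 groups of 3 libraries were untreated WT, untreated Pim1-/-, WT given LPS at 100 ng/ml for 4 h, and Pim1-/- given the same LPS. The labels do not say whether the replicates came from separate mice or cultures, so p-values here measure only the spread between these libraries. In bulk RNA, fewer cells that express a gene and less of its RNA per cell cannot be told apart.

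Class II molecules carry peptides from engulfed proteins to the cell surface, where CD4 T cells read them. An alpha and a beta chain (H2-Aa with H2-Ab1 for I-A) assemble in the endoplasmic reticulum on the invariant chain, which Cd74 encodes and which blocks the peptide groove and steers the complex to endosomes. Proteases there trim the invariant chain, and H2-DM, a dimer of H2-DMa with an H2-DMb chain, swaps its last fragment for a peptide. Ciita, whose gene is on chromosome 16, does not bind DNA itself. It is recruited to promoters by the RFX and NF-Y factors, which sit on the X and Y boxes of class II genes, and it is itself induced by interferon-gamma.

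The members are neighbours on mouse chromosome 17, apart from Cd74 and Ciita. In the GRCm38 build H2-Aa spans chr17:34282744-34287823 on the minus strand, and H2-Ab1 (chr17:34257689-34269419), H2-Eb1 (chr17:34305867-34316674), H2-DMa (chr17:34119541-34139101), H2-DMb2 (chr17:34143307-34151555) and H2-DMb1 (chr17:34153072-34160230) lie on the plus strand. RefSeq promoter windows (GRCm38.p6) were found for 5 of the 8 members. An X motif CTNNNAAC followed 20 to 35 bases later by a Y motif GATTGG was searched on both strands in the 250 bases before each start. These letters were chosen after the members' windows had been read. The X motif was in 35.7% of 32851 mouse windows, the Y motif in 14.6%, and the ordered pair, whose parts do not overlap, in 0.17% (56 windows of 52 genes). H2-Aa, H2-Eb1, H2-DMb1 and H2-DMb2 held the pair and the 2 windows of H2-DMa did not. In H2-DMb1 the pair began at −97 from the start. Members with the pair and H2-DMa, without it, all had lower values in untreated Pim1-/- cells. The following stretches show the shared layout in H2-Aa, H2-Eb1 and H2-DMb2, with both motifs in capitals, 5′ to 3′ on the strand of the gene. They lie at chr17:34287852-34287922 (minus strand, first motif at −84 from the start), chr17:34305758-34305827 (plus strand, −94) and chr17:34145108-34145178 (plus strand, −126).
H2-Aa: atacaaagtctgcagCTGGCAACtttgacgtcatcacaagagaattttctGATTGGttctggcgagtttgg
H2-Eb1: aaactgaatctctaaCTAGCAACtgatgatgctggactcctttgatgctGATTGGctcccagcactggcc
H2-DMb2: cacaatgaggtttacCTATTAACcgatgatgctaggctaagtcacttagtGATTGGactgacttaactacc
The gap between the motifs was 27 bases in H2-Aa, H2-DMb1 and H2-DMb2, and 26 in H2-Eb1. A match of letters describes the sequence and not the binding of a factor.

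Values are FPKM, fragments per kilobase of transcript scaled to the library, and so can be compared between genes. The steps between low values gave an effective scale of 37800000 to 46200000 fragments in untreated libraries and 21000000 to 32200000 after LPS, and the summed FPKM was 452511 to 489710 in untreated libraries and 713307 to 849323 after LPS. Pim1 was at 21.5 to 25.0 FPKM in untreated WT and 8.00 to 9.51 in untreated Pim1-/- libraries, and at 630.2 to 665 and 205 to 236 after LPS, lower in Pim1-/- cells in both states but not absent. Which exons carry the remaining Pim1 reads was not analysed here. All 10 macrophage markers reached 1 FPKM in every group. All 10 also had lower means in Pim1-/- than in WT cells in both states. In untreated cells Fcgr1 was at 8.43 against 28.9 FPKM and Cd14 at 160 against 167. The summed level of the list, most of it from Lyz2, was 27978 to 30030 FPKM in untreated WT and 14435 to 15352 in untreated Pim1-/- libraries. It was 30859 to 31358 in LPS-treated WT and 15949 to 17814 in LPS-treated Pim1-/- libraries. Of 10 dendritic cell markers at most 2 had a mean of 1 FPKM in a group, with sums of 6.34 to 7.15, 5.71 to 6.77, 8.86 to 9.12 and 7.15 to 7.35 FPKM in the same order, and the defining markers Flt3, Zbtb46 and Clec9a were at 0.335 FPKM at most. Of 8 B cell markers, 1 (Cd79b) reached a mean of 1 FPKM, in untreated WT cells, and the list summed to 1.59 FPKM at most, with Pax5 listed at 0. The T and NK cell list was at 0.54 to 5.40 FPKM, in WT libraries most of it Cd4, with Cd3e at 0. The neutrophil list was at 1.57 to 8.22 FPKM. The 8 markers of cycling cells summed to 124 to 137 FPKM in untreated WT and 734 to 816 in untreated Pim1-/- libraries, and to 348 to 352 and 644 to 726 after LPS. Most of this was Pcna, with means of 110, 434, 313 and 546 FPKM in the same order. In untreated cells all 8 had higher means in Pim1-/- cells, Top2a at 66.9 against 2.96 FPKM. With LPS in WT cells the means of Pcna and Mki67 rose, and those of Top2a, Ccnb1, Cdk1, Birc5, Mcm5 and Rrm2 fell. The marker sums move with the genotype, and their part in the results on the class II genes was not tested.

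Without LPS, each of the 7 members tested had lower RNA in Pim1-/- cells than in WT cells, from the transactivator to the chains, the invariant chain and the peptide exchanger. The chains H2-Ab1 and H2-Eb1 and the invariant chain Cd74 were at 21.5% to 22.9% of their WT mean, H2-Aa and H2-DMa at 39.8% and 38.6%, and the transactivator Ciita at 13.4%. H2-DMb1, the beta chain of the peptide exchanger, was the least reduced, at 66.6%. A gene was called where it changed more than 2-fold on the log2(FPKM + 1) scale with p under 0.05 and an FDR under 0.1, and was said to pass where it met the thresholds on p and FDR at any fold. Of the 7 members tested, 6 were called lower, where 3.37% of all 10581 genes were, and 7 passed as lower, where 42.8% of all genes did. The 3 libraries of the 2 genotypes did not overlap for 7 of 7 members and for 78.4% of all genes. The median log2 fold change was −1.31 over the members and −0.05 over all genes.

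H2-Aa, the alpha chain of I-A, was at 105, 109 and 114 FPKM in untreated WT and at 43.1, 44.1 and 43.4 in untreated Pim1-/- libraries. Its partner H2-Ab1 was at 68.3, 68.8 and 77.7 FPKM in WT and at 16.9, 14.6 and 17.8 in Pim1-/- libraries. Both chains were thus lower in each Pim1-/- library than in any WT library, the beta chain by more, with log2 fold changes of −1.31 ± 0.04 (SE) for H2-Aa and −2.06 ± 0.07 for H2-Ab1 (adjusted p = 2.52e-13 and 3.81e-13, limma with Benjamini-Hochberg adjustment). H2-Eb1, the beta chain of I-E, was at 32.2, 33.3 and 34.9 FPKM in WT and at 7.24, 6.43 and 7.94 in Pim1-/- libraries, a change of −2.07 ± 0.06 (adjusted p = 1.13e-13, limma). Mice of this strain make no I-E alpha chain, and its pseudogene H2-Ea-ps was listed at 0 in all 12 libraries. Cd74 was the most abundant member, with 234, 223 and 258 FPKM in WT and 52.6, 48.3 and 59.1 in Pim1-/- libraries, and fell by 2.14 ± 0.07 on the log2 scale (adjusted p = 2.88e-13, limma).

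Ciita, the scarce coactivator on which constitutive and induced class II transcription depends, was at 2.03, 1.79 and 2.004 FPKM in untreated WT libraries. In untreated Pim1-/- libraries it was at 0.20, 0.25 and 0.33 FPKM, which stand for about 52.4 to 85.0 fragments per library. Its log2 fold change was −1.22 ± 0.06 (adjusted p = 8.09e-11, limma), and −2.52 with 0.1 in place of 1 added to each value, since the added 1 shrinks changes of low genes. Ciita shares 111 exonic bases with Dexi on the opposite strand. The kit marks strand, but whether counting used it is not given in the sources used here.

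H2-DMa was at 21.1, 21.0 and 21.4 FPKM in untreated WT and at 7.34, 8.08 and 9.08 in untreated Pim1-/- libraries, a change of −1.28 ± 0.08 (adjusted p = 8.58e-10, limma). H2-DMb1 was at 37.5, 36.2 and 36.6 FPKM in WT and at 25.1, 23.4 and 25.0 in Pim1-/- libraries, a change of −0.57 ± 0.05 (adjusted p = 4.54e-08, limma) that stayed under 2-fold. H2-DMb2, its paralogue, was at 1.12, 1.39 and 0.95 FPKM in WT and at 0.22, 0.42 and 0.38 in Pim1-/- libraries, and did not reach 1 FPKM in 3 libraries, so that it was not tested. The transcripts of the H2-DMb genes share 369 of their 50-base words, 27.2% of those of H2-DMb1 and 26.8% of those of H2-DMb2. Reads from these stretches can be split between them, which leaves both values uncertain, that of the low H2-DMb2 more than that of H2-DMb1.

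**Figure D1:**
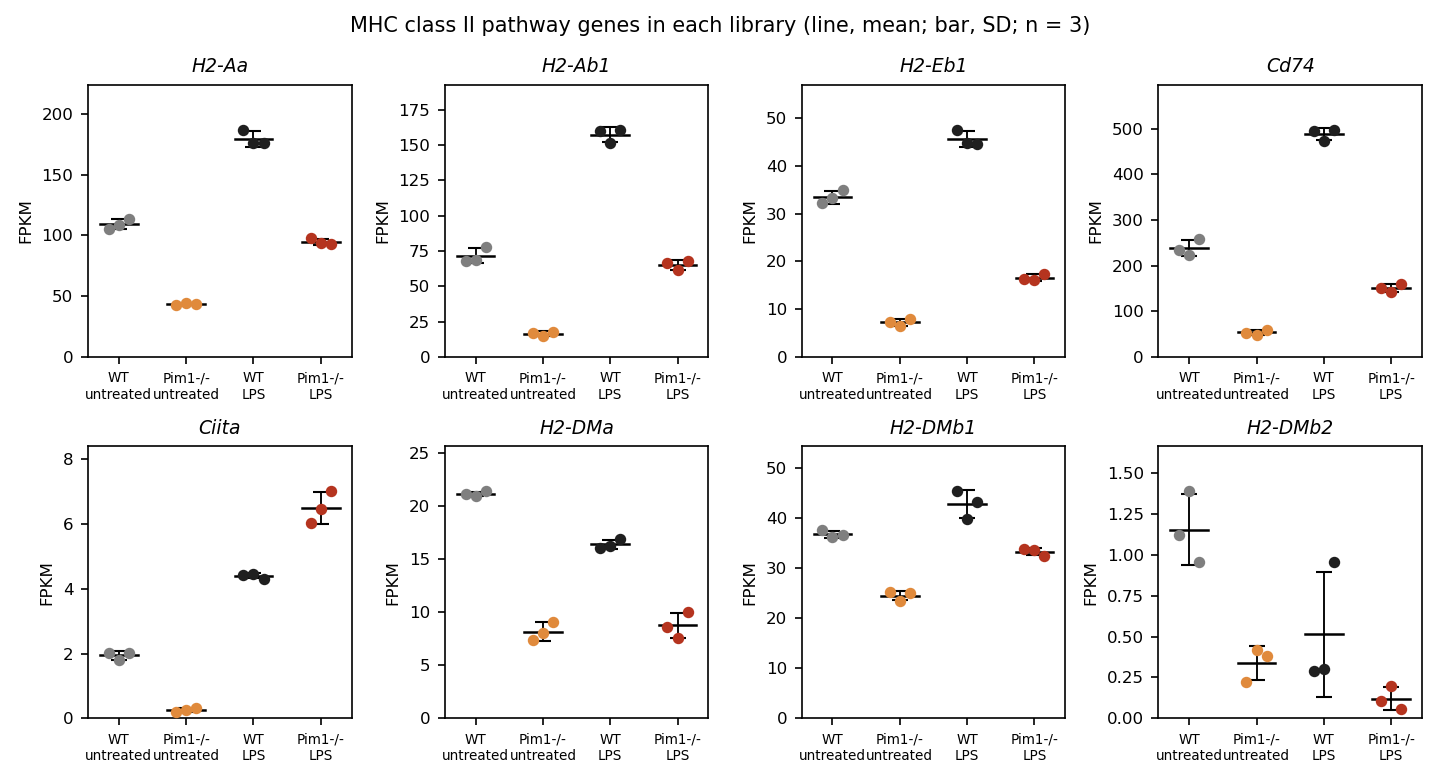
FPKM of the 8 members in each of the 12 libraries (points), with the group mean (line) and SD (bar, n = 3), on axes that start at 0. In untreated cells all 8 panels show lower values in Pim1-/- than in WT, and after LPS Ciita alone is higher in Pim1-/- (6.02 to 7.00 FPKM) than in WT (4.31 to 4.45).

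After LPS, the chains, Cd74 and H2-DM were still lower in Pim1-/- cells as deposited (of the 7 tested, Cd74 alone also relative to Actb), but Ciita was higher. Cd74 was at 31.0% of its WT mean, H2-Eb1 at 36.4%, H2-Ab1 at 41.4%, H2-Aa at 52.8%, H2-DMa at 53.4% and H2-DMb1 at 77.7%, whereas Ciita was at 148%. The limma fit called 3 of 7 members lower (5.15% of all genes), with 6 passing as lower (42.2% of all genes) and 1 as higher (36.4% of all genes). The genotypes did not overlap for 7 of 7 members and for 77.5% of all genes. The medians were −0.91 over the members and −0.03 over all genes. Actb was itself 2.71 times as high in LPS-treated WT as in LPS-treated Pim1-/- cells. Relative to Actb, H2-Aa, H2-Ab1, H2-DMa and H2-DMb1 passed as higher in Pim1-/- cells. On the same scale Cd74 passed as lower, by −0.25 on the log2 scale, and H2-Eb1, at −0.01, did not pass. Of all 10581 genes, 9927 passed as higher there and 209 as lower. The medians relative to Actb were 0.45 over the members and 0.98 over all genes.

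Cd74 was at 495, 472 and 497 FPKM in LPS-treated WT and at 151, 143 and 159 in LPS-treated Pim1-/- libraries, the largest decrease among the 7 members tested, −1.69 ± 0.07 on the log2 scale (adjusted p = 5.69e-12, limma). H2-Ab1 was at 160.1, 151 and 161 FPKM in WT and at 66.3, 61.4 and 67.7 in Pim1-/- libraries, a change of −1.26 ± 0.07 (adjusted p = 1.46e-10, limma). In LPS-treated Pim1-/- cells the beta chain of I-A thus stood under its level in untreated WT cells (68.3 to 77.7 FPKM). H2-Eb1 was at 47.6, 44.9 and 44.7 FPKM in WT and at 16.4, 16.1 and 17.4 in Pim1-/- libraries, a change of −1.41 ± 0.06 (adjusted p = 1.18e-11, limma). H2-Aa was at 187, 176 and 176 FPKM in WT and at 97.8, 93.9 and 93.1 in Pim1-/- libraries, and its change of −0.91 ± 0.04 (adjusted p = 2.1e-11, limma) did not reach 2-fold. Of the 3 chains, H2-Aa had the smallest change in both states.

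Ciita was at 4.43, 4.45 and 4.31 FPKM in LPS-treated WT libraries and at 6.02, 6.45 and 7.00 in LPS-treated Pim1-/- libraries. All 3 Pim1-/- values lay above the WT values, a change of 0.47 ± 0.06 (adjusted p = 4.51e-06, limma) that was under 2-fold. On the deposited scale the transactivator was thus higher in libraries where the chains it is known to induce were lower. H2-DMa was at 16.1, 16.2 and 16.9 FPKM in WT and at 8.63, 7.61 and 9.99 in Pim1-/- libraries, a change of −0.84 ± 0.08 (adjusted p = 9.3e-08, limma). H2-DMb1 was at 45.3, 39.9 and 43.2 FPKM in WT and at 33.7, 33.6 and 32.4 in Pim1-/- libraries, a change of −0.35 ± 0.05 (adjusted p = 7.32e-06, limma). H2-DMb2 was at 0.29, 0.30 and 0.95 FPKM in WT and at 0.10, 0.20 and 0.06 in Pim1-/- libraries, the latter standing for about 2.1 to 6.2 fragments, and WT replicate 3 stood apart from the other two.

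**Figure D2:**
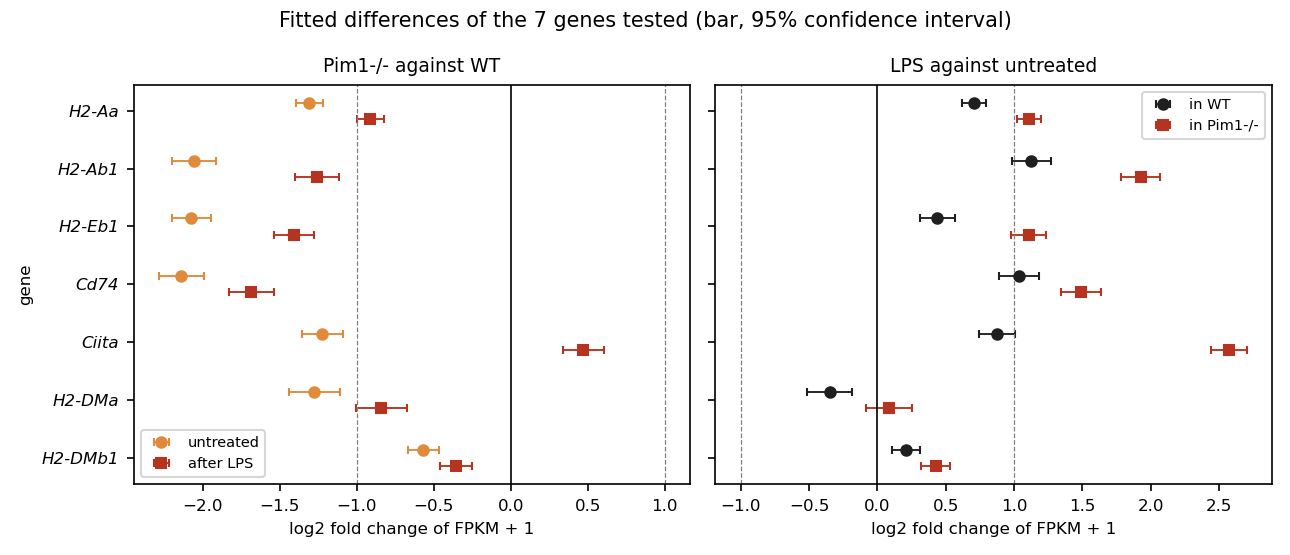
Fitted log2 fold changes of FPKM + 1 for the 7 members tested, with 95% confidence intervals; dashed lines mark 2-fold. On the deposited scale 6 members lie below 0 in both genotype comparisons, and Ciita turns from −1.22 untreated to 0.47 after LPS (left). The response to LPS lies further to the right in Pim1-/- than in WT cells for all 7 (right). Relative to Actb, H2-Aa, H2-Ab1, H2-DMa and H2-DMb1 were higher in Pim1-/- cells after LPS, where the median of all genes was 0.98. Most responses to LPS turned negative relative to Actb, with medians over all genes of −2.03 in WT and −1.36 in Pim1-/- cells.

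In WT cells, LPS for 4 h moved the members by modest amounts on the deposited scale. H2-Ab1 rose to 2.198 times and Cd74 to 2.05 times its untreated mean, Ciita stood at 2.26 times, H2-Aa at 1.64 times, H2-Eb1 at 1.37 times and H2-DMb1 at 1.16 times, and H2-DMa at 77.5%. The fit called 2 of 7 members higher (20.1% of all genes), 6 passed as higher (45.0% of all genes), and H2-DMa passed as lower, with a log2 change of −0.35 ± 0.08 (adjusted p = 0.000584, limma). Groups did not overlap for 7 of 7 members and for 90.4% of all genes. The medians were 0.71 over the members and 0.00 over all genes. H2-Ab1 changed by 1.13 ± 0.07 and Cd74 by 1.03 ± 0.07 (adjusted p = 1.42e-10 and 5.3e-10, limma), both close to the 2-fold line, and without replicate 2 of untreated WT 1 member was called. Ciita changed by 0.88 ± 0.06, H2-Aa by 0.71 ± 0.04, H2-Eb1 by 0.44 ± 0.06 and H2-DMb1 by 0.21 ± 0.05 on this scale. With 0.1 in place of 1 added to each value, Ciita changed by 1.14 and was called. Called higher were then 3 members and 2311 of all 10581 genes. The directions depended on the scaling. The summed FPKM rose with LPS as given above, and scaled to that sum H2-Ab1, Cd74 and Ciita remained higher by 0.32, 0.22 and 0.27 while H2-Aa, H2-Eb1 and H2-DMb1 were lower. Ciita passed as higher under each scaling tried other than that to Actb, and H2-Ab1 did so except to Actb and under quantile normalization, where its change was 0.09 (95% confidence interval −0.09 to 0.26). Actb itself rose 6.09-fold, and relative to it the 6 members that rose passed as lower, as did 9608 of all 10581 genes.

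In Pim1-/- cells, LPS raised Ciita, the chains and Cd74 from lower starting levels than in WT cells, on the deposited scale. Ciita went from 0.26 ± 0.07 to 6.49 ± 0.49 FPKM (mean ± SD, n = 3), a ratio of 25.0, H2-Ab1 from 16.4 ± 1.65 to 65.1 ± 3.28, H2-Eb1 from 7.21 ± 0.75 to 16.6 ± 0.65, Cd74 from 53.3 ± 5.47 to 151 ± 8.06 and H2-Aa from 43.5 ± 0.51 to 94.9 ± 2.50. These 5 of 7 members were called higher (14.6% of all genes), and 6 passed as higher (42.2% of all genes), H2-DMb1 with 0.43 ± 0.05. The log2 changes were 2.57 ± 0.06 for Ciita (adjusted p = 1.48e-15, limma), 1.93 ± 0.07 for H2-Ab1, 1.49 ± 0.07 for Cd74, 1.11 ± 0.04 for H2-Aa and 1.11 ± 0.06 for H2-Eb1. H2-DMa, at 7.34 to 9.08 FPKM before and 7.61 to 9.99 after, changed by 0.09, with a 95% confidence interval of −0.08 to 0.25 (adjusted p = 0.317, limma). Groups did not overlap for 6 of 7 members, H2-DMa being the exception, and for 83.8% of all genes. The medians were 1.11 over the members and −0.01 over all genes. Relative to Actb, Ciita and H2-Ab1 passed as higher after LPS and H2-Aa, H2-Eb1, H2-DMa and H2-DMb1 as lower. Cd74, at −0.02 relative to Actb, did not pass. Of all 10581 genes, 1094 passed as higher there and 9162 as lower. H2-DMb2, not tested, was at 0.34 ± 0.10 FPKM before and 0.12 ± 0.07 after LPS in Pim1-/- cells, and at 1.15 ± 0.22 and 0.51 ± 0.38 in WT cells.

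The log2 change with LPS was more positive in Pim1-/- than in WT cells for each member tested. The difference was 1.69 ± 0.09 for Ciita (adjusted p = 3.78e-10, limma) and 0.80 ± 0.09 for H2-Ab1 (adjusted p = 3.19e-06, limma). It was 0.67 ± 0.09 for H2-Eb1, 0.45 ± 0.10 for Cd74, 0.43 ± 0.11 for H2-DMa, 0.40 ± 0.06 for H2-Aa and 0.21 ± 0.07 for H2-DMb1. For H2-DMa it came from a decrease in WT cells (−0.35 as deposited), with a change in Pim1-/- cells (0.09) that did not pass. Of 7 members 1 was called higher (2.24% of all genes) and 7 passed as higher (31.3% of all genes), with a median of 0.45 over the members. This direction was the same for the 7 members under the 5 scalings tried. With 0.1 added in place of 1, the difference for Ciita was 3.07. This contrast uses the same 12 libraries as those above, and so is no further evidence for them.

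**Figure D3:**
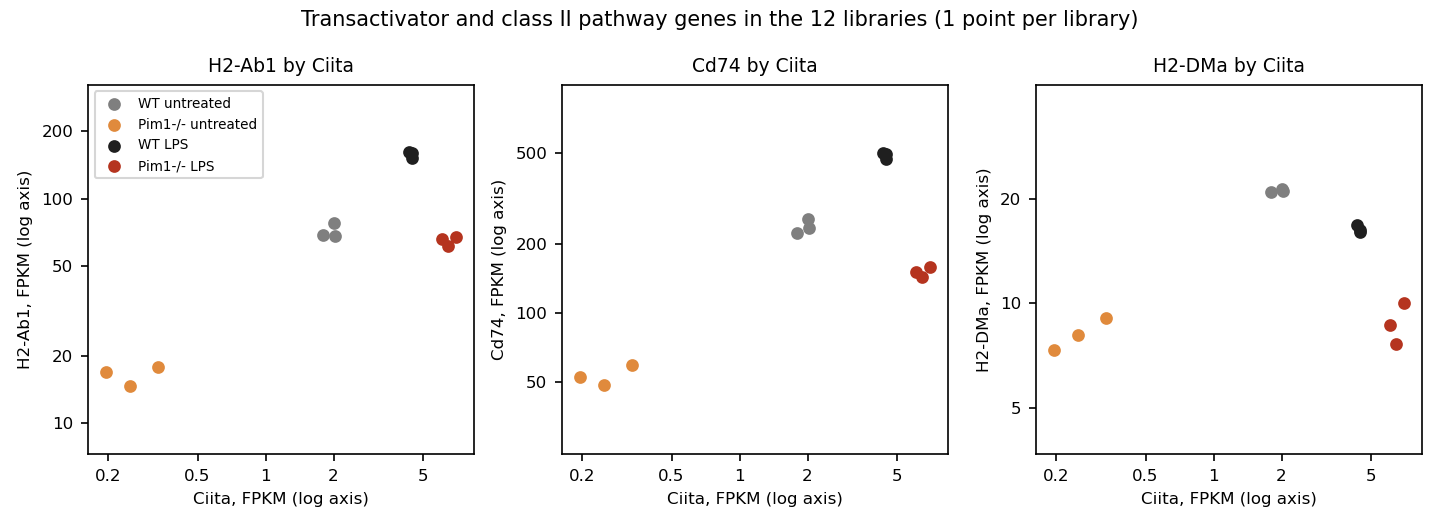
FPKM of H2-Ab1, Cd74 and H2-DMa (vertical, log axis) against that of Ciita (horizontal, log axis) in the 12 libraries. The LPS-treated Pim1-/- libraries lie furthest right, at 6.02 to 7.00 FPKM of Ciita, with 61.4 to 67.7 FPKM of H2-Ab1, whereas the LPS-treated WT libraries at 4.31 to 4.45 FPKM of Ciita hold 151 to 161 FPKM of H2-Ab1.

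The order of the members by level changed little. In untreated WT cells it ran Cd74, H2-Aa, H2-Ab1, H2-DMb1, H2-Eb1, H2-DMa, Ciita and H2-DMb2, and no neighbours overlapped. In untreated Pim1-/- cells H2-DMb1 stood above H2-Ab1, and H2-DMa with H2-Eb1 and H2-DMb2 with Ciita overlapped. In LPS-treated WT cells H2-Eb1 and H2-DMb1 overlapped, and in LPS-treated Pim1-/- cells the order was that of untreated WT cells with no overlap between neighbours.

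Ratios within a library do not depend on scaling by a common factor, which quantile normalization is not. As deposited, they show that the members did not change in proportion. The alpha to beta ratio of I-A, H2-Aa over H2-Ab1, was 1.46 to 1.58 in untreated WT and 2.45 to 3.02 in untreated Pim1-/- libraries, and 1.09 to 1.17 and 1.38 to 1.53 after LPS. It was higher in every Pim1-/- library than in any WT library of the same treatment. Cd74 over H2-Ab1 was 3.24 to 3.43 in untreated WT and 3.10 to 3.33 in untreated Pim1-/- libraries, which overlap. After LPS this ratio was 3.09 to 3.12 in WT and 2.28 to 2.35 in Pim1-/- libraries, so that Cd74 had dropped relative to H2-Ab1. H2-Eb1 over H2-Ab1 was 0.45 to 0.48 and 0.43 to 0.45 in untreated WT and Pim1-/- libraries, and 0.28 to 0.30 and 0.25 to 0.26 after LPS. H2-DMb1 over H2-DMa, the chains of the peptide exchanger, was 1.71 to 1.78 in untreated WT, 2.75 to 3.42 in untreated Pim1-/-, 2.46 to 2.82 in LPS-treated WT and 3.24 to 4.42 in LPS-treated Pim1-/- libraries. An exact permutation test of 3 against 3 libraries cannot give a two-sided p under 0.1, and none is given for the ratios.

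**Figure D4:**
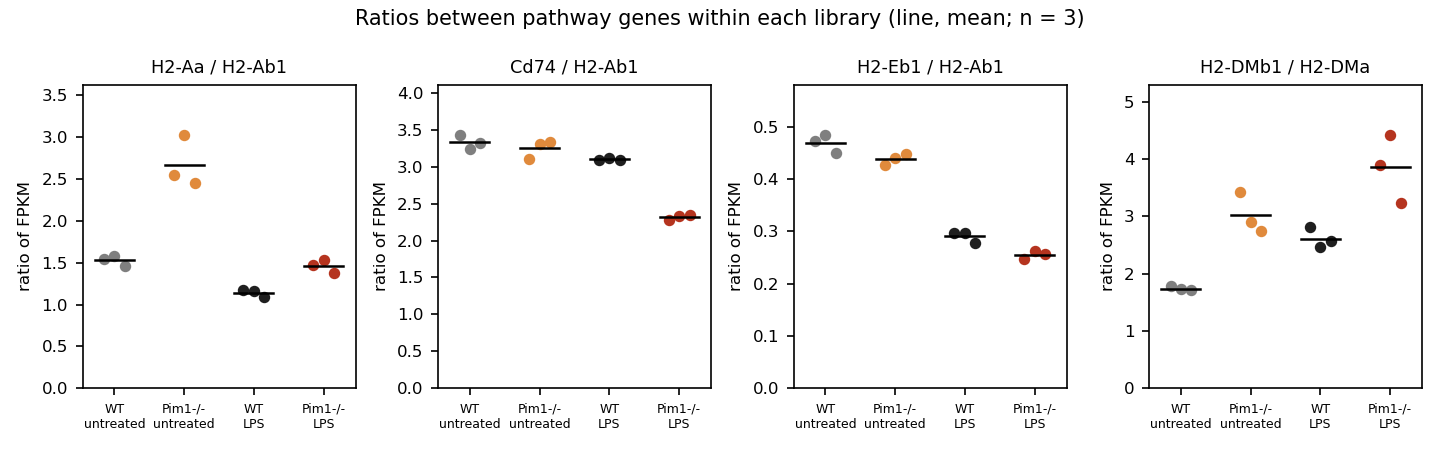
Ratios of FPKM between members within each library (points) with the group mean (line, n = 3), on axes that start at 0. The ratio of H2-Aa to H2-Ab1 is highest in untreated Pim1-/- libraries (2.45 to 3.02), and that of Cd74 to H2-Ab1 is lowest in LPS-treated Pim1-/- libraries (2.28 to 2.35).

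Of 33 other genes of the pathway, grouped by role, 28 were tested. In untreated cells 4 of them were called lower in Pim1-/- cells (3.37% of all genes), 17 passed as lower (42.8%) and 6 as higher (33.4%), with a median of −0.31. After LPS 4 were called lower (5.15% of all genes), 20 passed as lower (42.2%) and 6 as higher (36.4%), with a median of −0.31. These shares over all genes are also those against which the counts by role below stand. Relative to Actb, 1 of those 20, March1, still passed as lower after LPS, where 209 of all 10581 genes did.

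The complex that recruits Ciita to class II promoters (Rfx5, Rfxap, Rfxank, Nfya, Nfyb, Nfyc and Creb1) had no member called in a genotype comparison. In untreated Pim1-/- cells 3 of 7 passed as lower (Rfx5, Rfxap and Rfxank, of which Rfxap did not pass relative to Actb) and Nfyb as higher. After LPS 6 passed as lower, on the deposited scale and not relative to Actb (nor, for Rfx5 and Nfyc, to the summed FPKM), and Rfxank as higher. Of the 7 endosomal genes, which cut the invariant chain or prepare peptides, 2 passed as lower and 5 as higher in untreated Pim1-/- cells, and 4 of those 5 (Ctss, Ctsl, Ctsd and Sppl2a) were lower when scaled to reference genes. After LPS 3 passed as lower (Ctsb, Lgmn and Sppl2a, none of them relative to Actb, and Sppl2a only as deposited, after median-ratio scaling or relative to reference genes) and 4 as higher. Lgmn, an asparaginyl endopeptidase that begins the cleavage of the invariant chain, was at 766, 801 and 787 FPKM in untreated WT and at 362, 361 and 381 in untreated Pim1-/- libraries (log2 change −1.09 ± 0.04, adjusted p = 5.99e-13, limma).

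Of the 3 genes of class II turnover, March1 and Cd83 passed as lower in untreated Pim1-/- cells, and after LPS March1 passed as lower and Cd83 as higher (but not when scaled to reference genes). March1, a membrane ubiquitin ligase that sends surface class II molecules to degradation, was at 12.4, 13.1 and 11.8 FPKM in untreated WT and at 4.93, 5.17 and 4.62 in untreated Pim1-/- libraries. After LPS it was at 19.5, 19.2 and 18.6 FPKM in WT and at 1.75, 1.34 and 1.40 in Pim1-/- libraries. The gap between genotypes was −1.19 ± 0.06 before and −3.01 ± 0.06 after LPS (adjusted p = 1.79e-10 and 6.28e-15, limma). March1 thus fell with LPS in Pim1-/- cells by 1.24 on the log2 scale, while in WT cells it rose by 0.58 as deposited and was lower when scaled to Actb or to the summed FPKM. Cd83, which hinders March1, was at 70.4 to 74.2 FPKM in untreated WT, 36.6 to 38.8 in untreated Pim1-/-, 674 to 695 in LPS-treated WT and 707 to 807 in LPS-treated Pim1-/- libraries.

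Ifng, the main inducer of Ciita, was listed at 0 in all 12 libraries, and its signalling genes were present in both genotypes. In Pim1-/- cells 8 of the 9 tested passed as lower without treatment and 8 after LPS. Relative to Actb none of the latter 8 did, and of the former 8, Jak1 (−0.11) and Socs1 (−0.04) were among those that did not. Untreated Socs1 was low, with means of 0.56 FPKM in WT and 0.41 in Pim1-/- cells. Irf1, a transcription factor that drives Ciita, was at 33.0, 34.7 and 34.2 FPKM in untreated WT and at 12.9, 13.2 and 14.2 in untreated Pim1-/- libraries (−1.28 ± 0.04, adjusted p = 2.42e-13, limma). Jak1, a kinase of the interferon receptors, was at 131, 141 and 129.7 FPKM in LPS-treated WT and at 53.0, 54.7 and 54.0 in LPS-treated Pim1-/- libraries (−1.30 ± 0.04, adjusted p = 3.61e-13, limma), and relative to Actb its difference was 0.13 and did not pass. Socs1, an inhibitor of this signalling, was at 137, 124 and 140.4 FPKM in LPS-treated WT and at 45.5, 45.9 and 49.8 in LPS-treated Pim1-/- libraries (−1.49 ± 0.07, adjusted p = 1.5e-11, limma), and did not pass relative to Actb. Both repressors tested, Il10 and Prdm1, passed as lower in both states, after LPS not relative to Actb. Untreated Il10 was under 1 FPKM in each library, at 0.31 to 0.67 in WT and 0.12 to 0.25 in Pim1-/- libraries. Prdm1, which silences Ciita in plasma cells, was at 3.98, 4.08 and 4.27 FPKM in untreated WT and at 0.63, 0.68 and 0.71 in untreated Pim1-/- libraries (−1.61 ± 0.05, adjusted p = 2.06e-13, limma). Il10 was at 48.9, 49.6 and 48.0 FPKM in LPS-treated WT and at 22.4, 22.8 and 20.6 in LPS-treated Pim1-/- libraries (−1.12 ± 0.08, adjusted p = 2.36e-09, limma). The 4 other class II chains, H2-Oa, H2-Ob, H2-Eb2 and H2-Ea-ps, did not pass the filter on low values, and the H2-O chains, which restrain H2-DM in B cells, reached 1.51 FPKM at most.

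**Figure D5:**
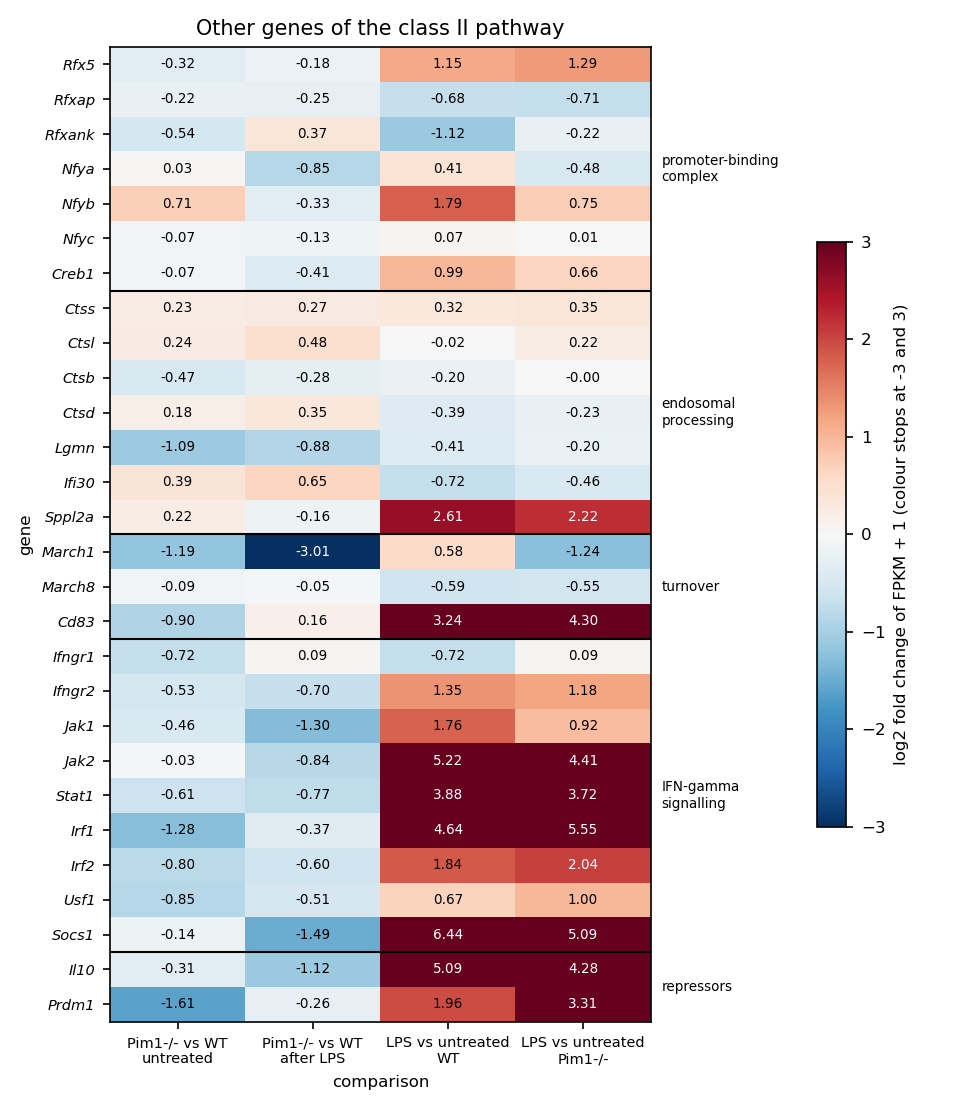
Log2 fold changes of FPKM + 1 for the 28 other pathway genes tested, by role, in the genotype comparisons and in the responses to LPS of each genotype; colour stops at −3 and 3. March1 has the lowest value of the panel after LPS (−3.01), and most genes of interferon-gamma signalling are lower in Pim1-/- cells in both states on the deposited scale, none of them after LPS relative to Actb.

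The 5 genes whose profile over the 12 libraries was most like the mean profile of the 7 members tested were Ticam2 (Pearson's r = 0.993), Hist3h2a and Mlxip (0.991 each), and Baz2a and Clec4a1 (0.989 each). The libraries fall into the 4 groups and share their scaling, so r describes the order of the groups. Of 10574 other genes, 99 reached an r of 0.95 and 358 an r of 0.9. Ticam2, an adaptor of TLR4, had means of 13.8, 7.83, 17.7 and 12.7 FPKM in untreated WT, untreated Pim1-/-, LPS-treated WT and LPS-treated Pim1-/- cells. Clec4a1, a C-type lectin, had means of 34.0, 2.03, 139.5 and 24.4 FPKM in the same order.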

How the data were processed

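Stranded mRNA libraries of BMDMs were sequenced, 3 in each of 4 groups. The submitters' processing notes name bcl2fastq 2.20.0.422, cutadapt 1.18, TopHat2 2.0.13, Cuffdiff 2.2.1 and mm10, while the methods name rat rn5. The deposited values were read as FPKM, from Cuffdiff and the step of low values, and were used as deposited. How libraries were normalized and which annotation was used is not given in the sources used here. Of 23997 symbols, 22694 matched GENCODE M21 directly and 1185 through an older name, and 118 did not. The depth was estimated with an assumed fragment length of 200 bases from genes with 1 transcript, where 71.5% to 78.0% of values up to 0.3 FPKM were whole multiples of that step to within 0.1. Pearson's r across genes between replicates, which are not independent, was 0.9977 to 0.9989.

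log2(FPKM + 1) was fitted with limma 3.58.1 (under R 4.3.3) to the 4 groups, with a mean-variance trend, over the 10581 genes that reached 1 FPKM in 3 or more libraries, and p-values were adjusted by Benjamini-Hochberg over all of them. The script was tested on simulated data. Figures used matplotlib 3.10.9, and tables Python 3.11.15 with numpy 2.4.6 and pandas 2.3.3. The members, the pathway list and the marker lists (macrophage, dendritic, B, T and NK, neutrophil and cycling cells) were chosen with earlier results of these data known. Named with values were the members, Pim1, pathway genes called between genotypes or in the difference of response, and the 5 genes most like the members, and Actb, H2-O and markers at need. Motifs were searched in RefSeq promoter windows, and 50-base words were compared between GENCODE transcripts. Alternatives were a pseudocount of 0.1, no filter, a 5 FPKM filter, quantile and median-ratio scaling, scaling to Actb and to 8 reference genes, the groups compared alone, the replicate block, no trend, no fold threshold and leaving out each library. Scaling to the summed FPKM was added after seeing the data.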

Additional observations from a re-analysis of the deposited data

Results flagged for a closer look

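The response to LPS differed between genotypes, by the test of that difference with limma and the thresholds above, for 1 of 7 members and for 5 of the 28 other pathway genes tested. By the same test and thresholds, 706 of all 10581 genes were called in either direction, 469 lower and 237 higher. The response of Ciita was larger in Pim1-/- than in WT cells by 1.6948 on the log2 scale. Cd83, at 1.0587, and Prdm1, at 1.3516, also responded more in Pim1-/- cells. Nfyb, a subunit of the Y-box factor, responded less in Pim1-/- cells, by −1.0461, as did Socs1, by −1.3452. The difference for March1 was −1.8233, with opposite directions as deposited, 0.58 in WT and −1.24 in Pim1-/- cells. Under the 5 scalings tried, each of the 6 passed at any fold except Socs1 and Nfyb relative to Actb, which were at −0.02 and −0.12 there, while March1 relative to Actb (−0.67), Socs1 with quantile normalization (−0.96) and Nfyb with reference genes (−0.89) or the summed FPKM (−0.92) were short of 2-fold.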

How the results depend on the processing

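In untreated cells 6 members were called lower in Pim1-/- cells under each alternative other than scaling to Actb (4) and no fold threshold (7), and no scaling turned the direction of a member there. Without a fold threshold the members called were 7 after LPS, 7 for LPS in WT and 7 for the difference of response. The other pathway genes were then 23 untreated, 26 after LPS, 26 and 25 for LPS in WT and in Pim1-/- and 23 for the difference. Of all 10581 genes, 8066 were called so untreated, 8314 after LPS, 9489 and 9013 for LPS in WT and in Pim1-/- and 6978 for the difference. Scaling shifted the median of all genes, to Actb by 0.26 untreated, 0.98 after LPS, −2.03 and −1.36 for LPS in WT and Pim1-/- and 0.74 for the difference, to reference genes by −0.37, −0.18, −0.24, −0.09 and 0.17, under quantile normalization by −0.17 and −0.18 for LPS, and to the summed FPKM by −0.67 and −0.58 for LPS and 0.12 and 0.11 after LPS and for the difference. Members are best read against these shifts. With reference genes, members called were 5 after LPS (10.5% of all genes, in either direction) and 0 for LPS in WT (36.9% of all genes). For LPS in WT the unadjusted p (limma) was under 0.05 for 5 of 7 there. With quantile normalization the members called were 2 after LPS, 1 and 3 for LPS in WT and Pim1-/- and 4 for the difference. Of all genes 6.52%, 32.6%, 25.1% and 6.78% were called there in either direction. With Actb the members called were 2 after LPS, both higher in place of 3 lower, and 6 for LPS in WT, all lower. They were 3 for LPS in Pim1-/-, 2 lower and 1 higher, and 7 for the difference. Of all genes 49.0%, 86.1%, 74.5% and 29.3% were called with Actb in either direction. With the summed FPKM the members called were 1 and 2 for LPS in WT and Pim1-/- (46.0% and 35.4% of all genes). Other pathway genes called were 2 untreated with Actb (11.5% of all genes). With Actb they were 13, 20 and 14 after LPS, for LPS in Pim1-/- and for the difference. They were 8 untreated and 7 after LPS with reference genes (12.0% and 10.5% of all genes). With quantile normalization after LPS they were 2 (6.52% of all genes). Leaving out each library in turn gave 1 to 2 members called for LPS in WT and the same counts as all libraries in the other comparisons.

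Directions that turned were these, as log2 changes. After LPS with Actb, H2-Aa was at 0.515, H2-Ab1 at 0.1664, H2-DMa at 0.4508, which is also the median, and H2-DMb1 at 1.0234. For LPS in WT with Actb, H2-Aa was at −1.8712, also the median, H2-Ab1 at −1.4483, H2-Eb1 at −2.0774, Cd74 at −1.5627, Ciita at −0.9665 and H2-DMb1 at −2.3011. With quantile normalization H2-Aa was at −0.3904, H2-Eb1 at −0.227, Cd74 at −0.3122, also the median, and H2-DMb1 at −0.476. With the summed FPKM H2-Aa was at −0.0964, also the median, H2-Eb1 at −0.3533 and H2-DMb1 at −0.58, and with reference genes H2-DMb1 was at −0.0662. For LPS in Pim1-/- with Actb, H2-Aa was at −0.3954, H2-Eb1 at −0.2938, also the median, Cd74 at −0.0182, H2-DMa at −1.3113 and H2-DMb1 at −1.056, with the summed FPKM H2-DMa was at −0.5101 and H2-DMb1 at −0.2163, and H2-DMa, which did not pass, was at −0.0054 without replicate 3 of LPS-treated Pim1-/-. The cause of these turns was not tested beyond the shifts given.

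Libraries of different groups share replicate numbers. Deviations of same-numbered libraries correlated at 0.01 to 0.45 between the genotypes without treatment and at −0.07 to 0.28 after LPS over 5410 genes. Between untreated and LPS-treated libraries they correlated at 0.06 to 0.16 in WT and at 0.08 to 0.36 in Pim1-/- cells. A library correlated best with its own number in 20 of 36 comparisons, which take each pair of groups in both directions and so are not independent. The count is more than an even spread over the 3 candidate numbers would give, so pairing is not excluded. The main fit did not pair the libraries. With the replicate block 6 members were called untreated, 3 after LPS, 2 and 5 for LPS in WT and Pim1-/- and 1 for the difference, as without it. The estimated depth limits H2-DMb2 and, in untreated Pim1-/- cells, Ciita.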
